A study of Rattus norvegicus with 31 samples.

Results

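The insulin signalling route to the Foxo transcription factors was followed through 9 genes, Insr, Irs1, Irs2, Pik3r1, Pdpk1, Akt1, Akt2, Foxo1 and Foxo3, in peripheral blood mononuclear cells (PBMC) of adult rats. The genes were selected by name on 2-colour expression arrays, with every probe of each kept. They had 18 probes among the 41012 on the array, which carry 17274 gene symbols in all, and 17 probes of 8 genes were bright enough to be tested. The names were chosen from earlier results of the same arrays, in which Foxo1 and Irs2 were lower than in the controls and Insr was near 0. For these 3 genes the differences from the controls are therefore given as a description, with intervals and without p-values. The other members were not named in those results.

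Offspring of 3 groups were compared. The 7 WT samples came from young of dams that were fed normally through pregnancy and nursed them normally. The 11 CR samples came from young of dams given 20% less energy on days 1 to 12 of pregnancy and then nursed normally. The 13 CR-L samples had the same restricted dams, and the pups also received leptin, the satiety hormone of adipose tissue, until postnatal day 21, in daily amounts that rose from 1.0 to 43.8 ng and were meant to be 5 times the intake from milk. All 3 groups ate chow freely for 4 months before blood was drawn, and females and males were both used. The dams were 16 mated rats, so some of the 31 samples share a dam, but neither litter nor sex is given per sample, and p-values that treat samples as independent may be too small.

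Insulin binds the receptor Insr, whose kinase phosphorylates the adaptors Irs1 and Irs2. The adaptors recruit phosphoinositide 3-kinase, of which Pik3r1 encodes the main regulatory subunit, and the lipid it makes brings Akt1 and Akt2 to the membrane, where Pdpk1 phosphorylates them. Active Akt phosphorylates Foxo1 and Foxo3, which then leave the nucleus. The route also runs in blood leukocytes, and Foxo1 in lymphocytes is known for its control of homing receptors and of quiescence. In many cells Foxo factors raise transcription of Insr and Irs2 when insulin is low.

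Each array compared the Cy5-labelled RNA of 1 sample with a common Cy3-labelled pool, and values are log2 ratios of sample over pool, so that a difference of 1 between groups is a doubling. On each array 57.5% to 83.6% of spots were well above background in the sample channel. WT replicate 6 stood apart, with a median sample signal of 235 against 69.8 to 93.9 on the other 30 arrays. The lists of T cell (18 of 20 genes measured), B cell (14 of 18), monocyte (13 of 16) and cytotoxic cell (11 of 15) markers were well above background on every array. Markers of cells that a mononuclear preparation should hold few of were measured too, with 12 of 16 granulocyte, 17 of 20 erythroid and 11 of 16 platelet genes.

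The probes are 60 bases long, and their place in the transcript matters for what follows. Foxo1 was read by 1 probe, at transcript base 1473 (rn4, chr2:141201740-141201799). Pik3r1 and Pdpk1 were each read by a probe far along the transcript and by one nearer its start, and Irs2 by 5 probes. Shown with the sequence of Foxo1 is that of a probe nearer the start of Irs2 (base 2708, chr16:83382695-83382754), Pik3r1 (base 1365, chr2:32606419-32606478) and Pdpk1 (base 1577, chr10:13329950-13330469). The distant probes of the same genes gave other differences from WT, although for Pdpk1 the contrast between probes did not pass the threshold. The Pdpk1 probe spans more of the genome than its own length, so it crosses an intron.
Foxo1, base 1473: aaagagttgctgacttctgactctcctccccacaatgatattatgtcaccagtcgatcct
Irs2, base 2708: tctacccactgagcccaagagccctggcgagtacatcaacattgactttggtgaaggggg
Pik3r1, base 1365: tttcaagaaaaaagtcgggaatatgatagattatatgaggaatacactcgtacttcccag
Pdpk1, base 1577: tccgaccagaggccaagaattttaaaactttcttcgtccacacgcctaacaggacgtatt

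Akt1 and Akt2, which encode closely related kinases, were read by 1 probe each, and these probes cover matching stretches. Aligned without gaps, 34 of 46 overlapping bases were equal (73.9%), with no equal run over 8 bases. In the sequences the equal bases are in capitals.
Akt1, base 1324: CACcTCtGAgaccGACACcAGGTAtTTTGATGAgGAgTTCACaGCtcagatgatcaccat
Akt2, base 1556: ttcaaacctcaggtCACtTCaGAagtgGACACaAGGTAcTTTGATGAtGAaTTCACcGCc

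The members did not move in 1 direction. In the brightest probes, the mean levels of Foxo1 and Irs2 were lower in both restricted groups than in WT, but Irs2 was not called in CR. Pdpk1 was higher than WT by 0.20 in CR and 0.22 in CR-L. Only its CR-L difference passed, close to the threshold. Insr, Akt1, Akt2, Foxo3 and the brightest Pik3r1 probe did not pass the test against WT, while the Pik3r1 probe farthest along the transcript rose in both restricted groups. Between leptin-treated and untreated offspring of restricted dams no member passed. Over the 8 measured genes the median difference was 0.030 for CR minus WT and -0.020 for CR-L minus WT, beside 0.012 in each over all features.

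In limma's moderated fit over 22258 features (the brightest probe of each gene), with a Benjamini-Hochberg adjusted p under 0.05 as the call, 1 of the 8 members was called for CR minus WT, and it was lower. That member was Foxo1, while Irs2 was short of the threshold in CR minus WT. Of all features, 0.458% were called in that comparison in either direction and 0.108% as lower. For CR-L minus WT, 3 of 8 members were called, 2 lower and 1 higher, beside 3.54% of all features in either direction and 1.39% as lower. Since the members were chosen with Foxo1 and Irs2 known to be lower, nothing is read from these shares. With every probe as its own feature, 2 and 4 of the 17 member probes were called, beside 0.479% and 3.47% of 26716 probes. Both comparisons use the same 7 WT arrays, so they are not independent of each other.

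**Figure D1:**
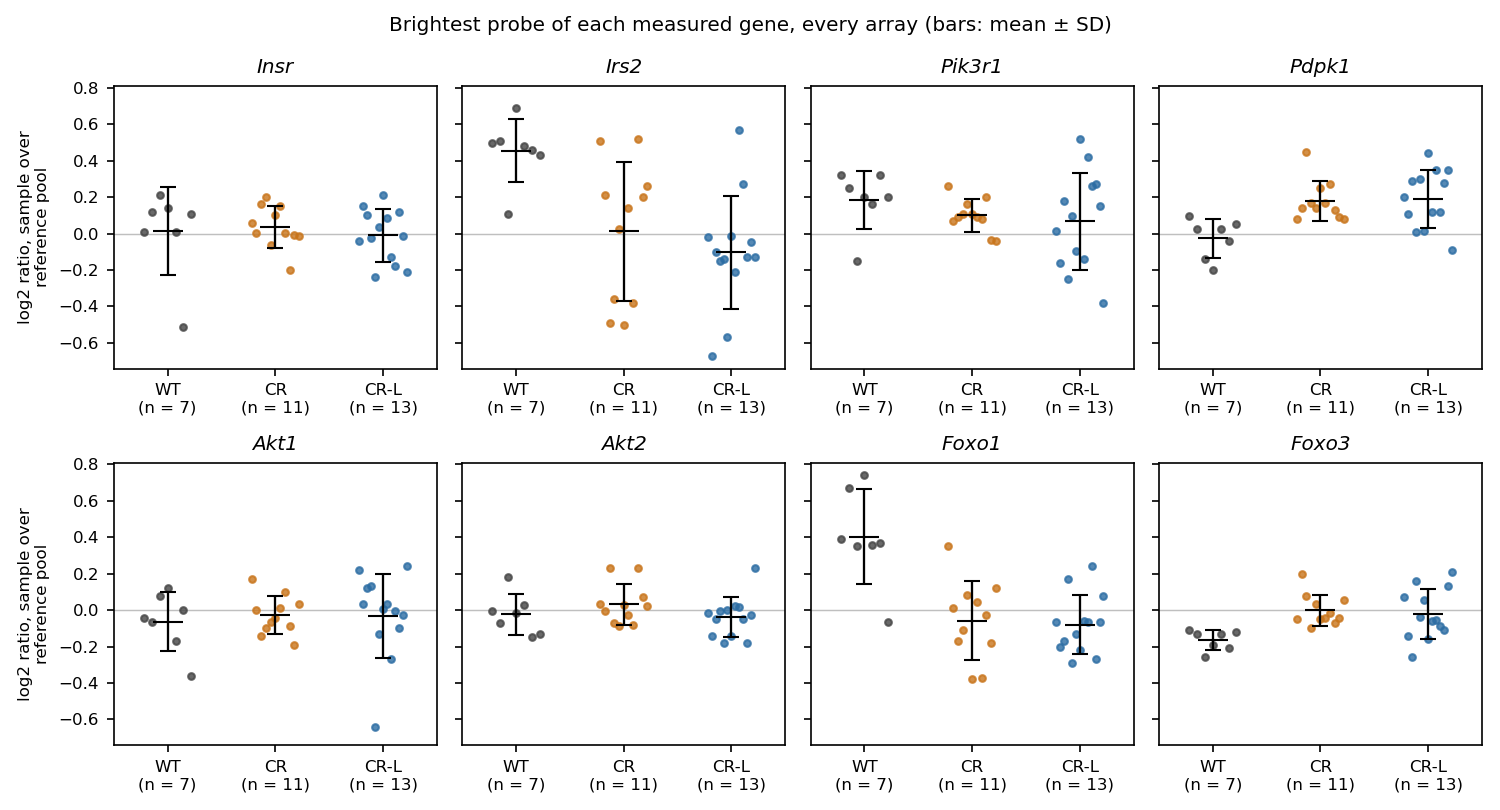
Log2 ratio of sample over reference pool on each array for the brightest probe of the 8 measured genes, in WT (n = 7), CR (n = 11) and CR-L (n = 13). Points are arrays and bars are mean ± SD. WT sits above most restricted samples for Irs2 and Foxo1, and the 1 low WT point in Insr is replicate 6 at -0.51.

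Insr, the insulin receptor, was measured on all arrays by its brighter probe (base 8636, chr12:3090759-3090818). It ranged from -0.51 to 0.21 in WT with a median of 0.11, from -0.20 to 0.20 in CR with a median of 0.0019, and from -0.24 to 0.21 in CR-L with a median of -0.015. The groups overlap fully, and the low WT value is that of replicate 6. The difference from WT was 0.024 ± 0.077 (SE) in CR and -0.023 ± 0.074 in CR-L, with 95% intervals of -0.13 to 0.18 and -0.17 to 0.13. Without WT replicate 6 both differences were below 0, at -0.063 and -0.11. The second probe (base 4849), with a signal 2.83 times background, gave 0.026 ± 0.067 and -0.034 ± 0.065. The signal of the brighter probe was 5.56 times background. With the Agilent log ratio its differences were -0.036 in CR and -0.11 in CR-L.

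The promoter of Insr holds the core motif that Foxo factors bind, which is shown because Insr is a known Foxo target. RefSeq promoters of build GRCr8, 250 bases before to 50 after the start, were found for 7 of the 9 genes. Searched on both strands for TGTTTAC and its reverse complement GTAAACA, which overlap no other motif searched, 1 of these 7 held a match, against 3.78% of 33469 promoters. The window below is on the minus strand at chr12:6128857-6128943, with the motif in capitals, 100 to 94 bases before the start.
Insr promoter: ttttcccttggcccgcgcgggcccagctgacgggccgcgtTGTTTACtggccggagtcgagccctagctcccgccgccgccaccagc

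Irs1, the first adaptor, could not be compared. Its probe, printed on 10 spots, was well above background on 2 of 31 arrays, 1 in WT and 1 in CR-L, and was not tested.

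Irs2, the second adaptor, was read by 5 probes. Its brightest probe (base 5894, chr16:83403814-83403873) ranged from 0.11 to 0.69 in WT with a median of 0.48. In CR it ran from -0.50 to 0.52 with a median of 0.14, and in CR-L from -0.67 to 0.57 with a median of -0.13. Of 11 CR arrays 5 lay below the lowest WT array, and of 13 CR-L arrays 11 did, so the groups overlap. The SD was 0.17 in WT, 0.38 in CR and 0.31 in CR-L, and the difference in spread was not tested. The mean was lower than WT by a log2 difference of -0.44 ± 0.15 in CR (95% interval -0.74 to -0.15) and -0.56 ± 0.14 in CR-L (-0.85 to -0.27), which is 1.36-fold and 1.47-fold. In the fit over all features the CR difference was short of the threshold. Without WT replicate 4, the highest WT array, the CR-L difference was -0.52.

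The other 4 Irs2 probes showed less. Of these, 3 (bases 1881, 2708 and 3288) read the same strand, and the fourth, from another transcript record, has coordinates that run the opposite way. All 4 were dim, with a median sample signal 2.29 to 2.90 times background against 42.9 times for the brightest probe. Their differences from WT lay between -0.13 and -0.026 in CR and between -0.14 and -0.013 in CR-L. The probe at base 2708, whose sequence is given above, had means of 0.098 in WT, 0.072 in CR and 0.085 in CR-L. Relative to the brightest probe, the 4 dim probes differed between CR-L and WT by 0.42 to 0.55. The largest was at base 2708 (95% interval 0.28 to 0.81). The normexp offset of 50 draws the ratios of dim probes toward 0, and its part in these differences was not tested. With group means removed, each dim probe was also correlated with the brightest over the 31 arrays. The coefficient was 0.38 at base 2708, 0.47 at base 3288, 0.067 at base 1881 and 0.51 for the opposite strand.

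Pik3r1, the regulatory subunit of phosphoinositide 3-kinase, gave different answers along its transcript. The probe nearest the start (base 1365) had means of 0.076 ± 0.27 (SD, n = 7) in WT, 0.078 ± 0.20 (n = 11) in CR and 0.086 ± 0.24 (n = 13) in CR-L. The brightest probe (base 4273, chr2:32602151-32602210) was at 0.19 ± 0.16 in WT, 0.10 ± 0.089 in CR and 0.068 ± 0.27 in CR-L. Neither probe differed between groups past the threshold, and at the brightest one the difference was -0.085 ± 0.092 for CR (limma adjusted p = 0.77) and -0.12 ± 0.089 for CR-L, with a 95% interval of -0.30 to 0.064.

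The farthest Pik3r1 probe (base 7726, chr2:32598698-32598757) was higher in both restricted groups. In WT it ranged from -0.88 to -0.051 with a median of -0.22, in CR from -0.10 to 0.37 with a median of 0.26, and in CR-L from -0.21 to 0.51 with a median of 0.22. Of the CR arrays 9 of 11, and of the CR-L arrays 12 of 13, lay above the highest WT array, and every restricted array was at or above the WT median. The lowest value was that of WT replicate 7. Fitted among all 26716 probes, the difference was 0.49 ± 0.10 for CR (limma adjusted p = 0.022) and 0.51 ± 0.097 for CR-L (adjusted p = 0.00247). Within slides, each of which held 1 WT array, all 7 slides showed a higher value in CR, by 0.34 to 0.83, and all 7 in CR-L, by 0.19 to 0.99. Without WT replicate 7 the differences were 0.39 and 0.42.

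This probe was singled out after its values were seen. The difference of each secondary probe from the brightest probe of its gene was therefore fitted over all 4458 secondary probes of the array. The farthest Pik3r1 probe differed from the brightest by 0.57 ± 0.12 in CR minus WT (limma adjusted p = 0.0124) and by 0.63 ± 0.11 in CR-L minus WT (adjusted p = 0.00142). Of all secondary probes, 0.965% and 4.17% were called in that way. With cell type lists as covariates the probe's own difference was 0.40 in CR (limma adjusted p = 0.0336) and 0.47 in CR-L (adjusted p = 0.00462). The CR difference missed the threshold without WT replicate 4 (limma adjusted p = 0.073), in the sample channel alone (adjusted p = 0.0895) and in the authors' series table (adjusted p = 0.0844).

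**Figure D2:**
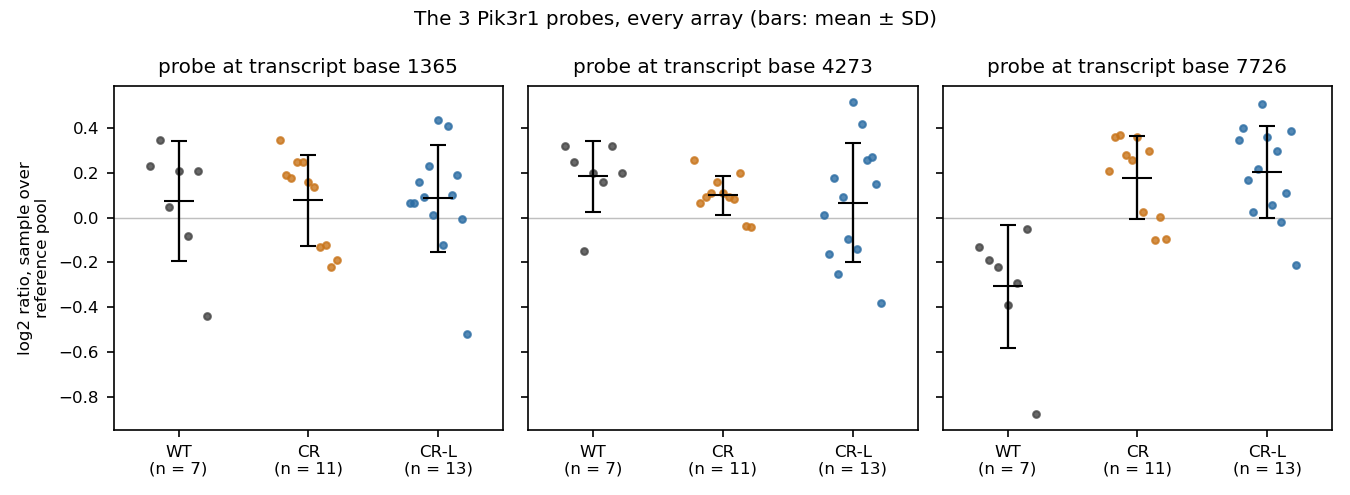
Log2 ratio of sample over reference pool for the Pik3r1 probes at transcript bases 1365, 4273 and 7726 on each array of WT (n = 7), CR (n = 11) and CR-L (n = 13). Points are arrays and bars are mean ± SD. At base 7726 the 7 WT arrays lie between -0.88 and -0.051 and 9 CR and 12 CR-L arrays lie above all of them, which is not seen at the other positions.

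Pdpk1, the kinase that activates Akt, was read most brightly by its distant probe (base 8909, chr10:13324470-13324529). That probe ranged from -0.20 to 0.097 in WT with a median of 0.023, from 0.080 to 0.45 in CR with a median of 0.14, and from -0.088 to 0.44 in CR-L with a median of 0.20. Of the CR arrays 8 of 11, and of the CR-L arrays 10 of 13, lay above the highest WT array. The difference was 0.20 ± 0.064 in CR (limma adjusted p = 0.139) and 0.22 ± 0.062 in CR-L (adjusted p = 0.0448), a rise of 1.16-fold in the latter. This call is close to the threshold: it was lost on leaving out any of 15 single arrays, with adjusted p up to 0.135 in limma, and with slide as a block (adjusted p = 0.0556). The probe nearer the start (base 1577) gave 0.030 ± 0.052 and 0.038 ± 0.051, and its difference from the brightest probe did not pass over all secondary probes (limma adjusted p = 0.197 and 0.0945).

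Akt1 and Akt2, the kinases that act on Foxo factors, did not pass the test against WT in either restricted group. Akt1, averaged over 10 spots, was at -0.064 ± 0.16 in WT, -0.028 ± 0.10 in CR and -0.030 ± 0.23 in CR-L, and its lowest array was CR-L replicate 5 at -0.64. Its 95% interval for CR-L minus WT was -0.13 to 0.20. Akt2 was at -0.022 ± 0.11, 0.031 ± 0.11 and -0.039 ± 0.11, with an interval of -0.13 to 0.091. The Akt2 signal was 5.88 times background, against 26.8 times for Akt1. None of the 4 differences from WT passed the threshold (limma adjusted p from 0.753 to 0.919).

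Foxo1, the factor that Akt excludes from the nucleus, ranged from -0.065 to 0.74 in WT with a median of 0.37. In CR it ran from -0.38 to 0.35 with a median of -0.027, and in CR-L from -0.29 to 0.24 with a median of -0.067. All 24 restricted arrays lay below the WT median, and 5 of 11 CR and 7 of 13 CR-L arrays below the lowest WT array, which was replicate 7. The other 6 WT arrays lay at 0.35 or above. The difference was -0.46 ± 0.096 in CR (95% interval -0.66 to -0.26) and -0.48 ± 0.093 in CR-L (-0.67 to -0.29), or 1.38-fold and 1.40-fold lower. In bulk RNA, fewer cells of a type that expresses Foxo1 and less Foxo1 RNA per cell cannot be told apart.

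Within slides, Foxo1 was lower than the WT array on 7 of 7 slides in CR, by -0.74 to -0.041, and on 7 of 7 in CR-L, by -0.91 to -0.20. Leaving out 1 array at a time, the difference ranged from -0.54 to -0.40 in CR and from -0.56 to -0.43 in CR-L, in both cases farthest from 0 without WT replicate 7 and nearest to 0 without WT replicate 4. In the authors' series table it was -0.49 in CR and short of the threshold. The CR difference was also short of it without WT replicate 2, 4 or 6 or CR replicate 8.

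Foxo3, its close relative, was not lower than WT in its brightest probe. The brightest probe (chr20:46168311-46168370) ranged from -0.26 to -0.11 in WT with a median of -0.13, from -0.10 to 0.20 in CR with a median of -0.043, and from -0.26 to 0.21 in CR-L with a median of -0.053. All 11 CR arrays and 10 of 13 CR-L arrays lay above the highest WT array. The difference was 0.16 ± 0.054 in CR (limma adjusted p = 0.165) and 0.14 ± 0.052 in CR-L (adjusted p = 0.134), which is not past the threshold. The second probe (base 1083, chr20:46185033-46185092), with a signal 2.60 times background, gave the opposite sign at -0.12 ± 0.066 and -0.10 ± 0.064, also not past it. Over the 31 arrays the correlation of the probes was -0.11 after group means were removed.

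**Figure D3:**
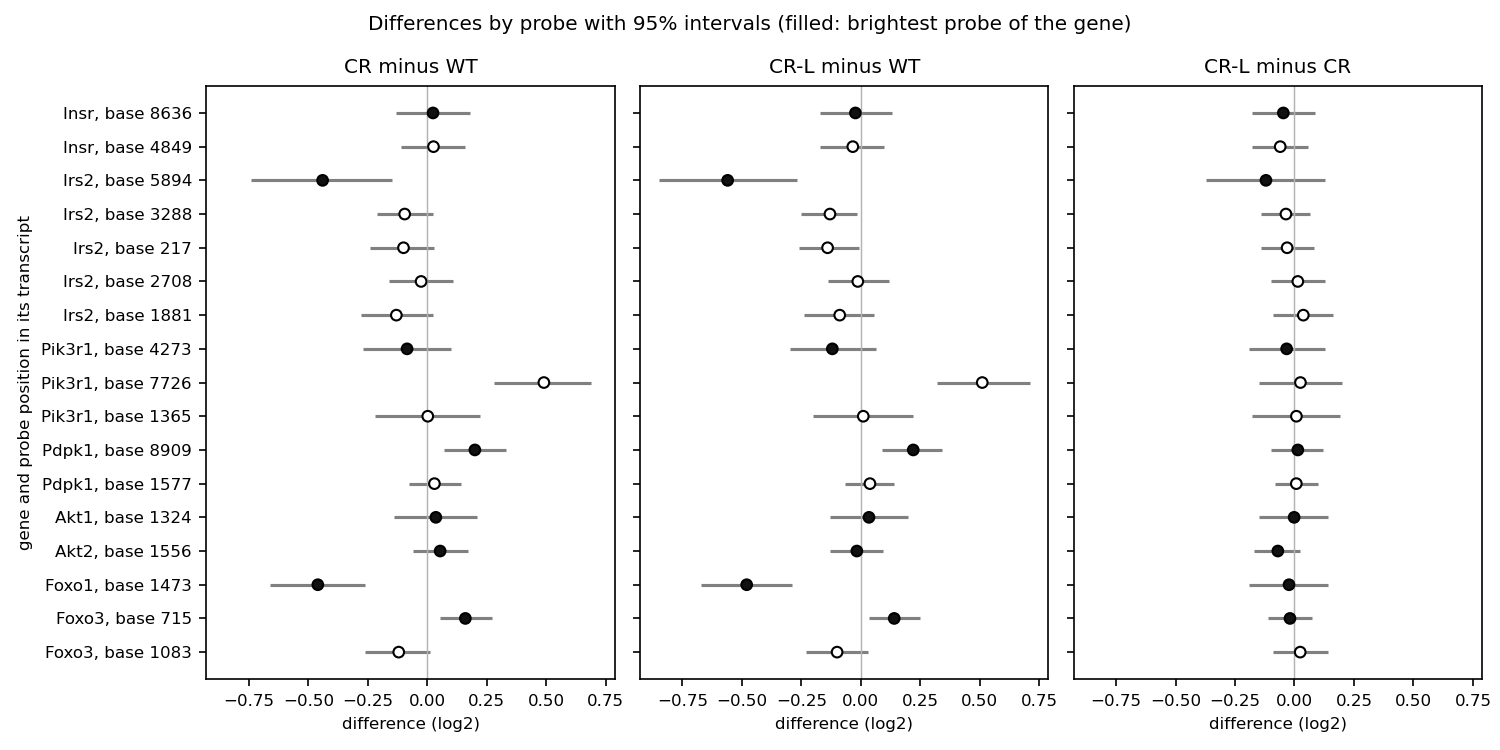
Difference between groups (log2, points) with its 95% interval (lines) for the 17 member probes that were tested, named by gene and position in the transcript record. Filled points are the brightest probe of each gene. The intervals of Foxo1 and of the brightest Irs2 probe lie below 0 and those of Pik3r1 at base 7726, Pdpk1 at base 8909 and Foxo3 at base 715 above 0 in both comparisons with WT, and every interval for CR-L minus CR holds 0.

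Leptin supplementation was compared directly in CR-L minus CR. None of the 8 members was called, and over all features 0% were called, with 518 of 22258 at an unadjusted p under 0.05 in limma. The member differences lay between -0.12 ± 0.12 for Irs2 and 0.014 ± 0.054 for Pdpk1. The 95% interval was -0.19 to 0.14 for Foxo1, -0.37 to 0.14 for Irs2 and -0.11 to 0.073 for Foxo3. The farthest Pik3r1 probe gave 0.025 ± 0.085 (-0.15 to 0.20). These intervals are the sizes that remain possible for a leptin effect, and they do not show that the groups are alike.

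Around the members, 5 lists of other genes of the pathway held 133 genes, of which 115 were measured. None was called in CR minus WT by limma, where 22 had an unadjusted p under 0.05 beside 12.4% of all features, and 7 (6.09%) were called in CR-L minus WT, 4 higher and 3 lower, beside 3.54% of all features. In that comparison 24 of the 115 had an unadjusted p under 0.05, beside 16.6% of all features. The median difference over these genes was 0.017 in CR and 0.043 in CR-L.

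Among receptor-proximal genes and adaptors, 0 of 16 measured were called in either comparison with WT. The closest in CR were Cblb, a ubiquitin ligase (-0.11 ± 0.054, limma adjusted p = 0.382), and Gab2, an adaptor (-0.25 ± 0.12, adjusted p = 0.385). In CR-L they were Ptpn1, the phosphatase that dephosphorylates the receptor (0.26 ± 0.15, limma adjusted p = 0.418), and Cblb (-0.082 ± 0.053, adjusted p = 0.466). The other probe of Cblb had the opposite sign in both comparisons. In CR-L minus CR the smallest p-values belonged to Gab2 (0.17 ± 0.10) and Ptpn1 (0.19 ± 0.13), both with a limma adjusted p of 1.

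Among 17 measured subunits of phosphoinositide 3-kinase and opposing phosphatases, 1 rose in CR-L and none was called in CR. It was Ppp2cb, a catalytic subunit of protein phosphatase 2A (0.16 ± 0.044, limma adjusted p = 0.0336), whose other probe had the opposite sign. Its sister Ppp2ca was at -0.15 ± 0.054 (adjusted p = 0.121). In CR, Ppp2cb was at 0.11 ± 0.045 (limma adjusted p = 0.29), again with the opposite sign at its other probe. The regulatory subunit Pik3r3 was at -0.20 ± 0.10 in CR (limma adjusted p = 0.45). Pik3ip1, an inhibitor of the kinase (-0.39 ± 0.25), and Pik3r3 (0.13 ± 0.088) had the smallest p-values in CR-L minus CR, with a limma adjusted p of 1.

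Of 25 measured genes of the Akt branch and its outputs, Trib2, a pseudokinase, fell in CR-L by 0.50 ± 0.10 on the log2 scale (limma adjusted p = 0.005) and was at -0.32 ± 0.11 in CR (adjusted p = 0.177). Trib1, of the same family, was at -0.38 ± 0.11 in CR and -0.35 ± 0.11 in CR-L, short of the threshold (limma adjusted p = 0.114 and 0.0726). The second probe of each had the same sign. In CR-L minus CR, Trib2 was at -0.18 ± 0.091 and Rptor, the scaffold of mTOR complex 1, at 0.055 ± 0.048, with a limma adjusted p of 1.

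Of 19 measured Foxo factors and regulators other than the members, Ywhag rose in CR-L by 0.45 ± 0.081 (limma adjusted p = 0.00196) and was at 0.31 ± 0.084 in CR (adjusted p = 0.0748). It encodes a 14-3-3 protein, the family that holds phosphorylated Foxo factors in the cytoplasm. Ywhae, of the same family, was at 0.16 ± 0.058 in CR-L (limma adjusted p = 0.122). Ctnnb1, beta-catenin, was at 0.16 ± 0.064 in CR (limma adjusted p = 0.29). In CR-L minus CR, Ywhag was at 0.14 ± 0.071 and the kinase Mapk8 at 0.096 ± 0.060, with a limma adjusted p of 1, and 1 of the other 3 probes of Mapk8 had the opposite sign.

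Known Foxo targets went both ways, in a list not split by whether Foxo factors raise or lower a gene. None of 41 measured was called in CR, beside 0.458% of all features. In CR-L 2 rose and 2 fell, beside 3.54% of all features called. Gadd45a, a growth arrest gene, fell by 0.31 ± 0.079 (limma adjusted p = 0.0244) and Atg12, of the autophagy machinery, by 0.25 ± 0.071 (adjusted p = 0.045). Ccnd1, cyclin D1, rose by 0.51 ± 0.13 (limma adjusted p = 0.0267) and Cited2, a transcriptional coregulator, by 0.34 ± 0.096 (adjusted p = 0.0406). In CR, Gadd45a was at -0.30 ± 0.081 and Cited2 at 0.33 ± 0.099, neither past the threshold (limma adjusted p = 0.0782 and 0.11). Ctla4 (-0.14 ± 0.069) and Bcl6 (0.17 ± 0.10) had the smallest p-values in CR-L minus CR, with a limma adjusted p of 1. The Foxo core motif was in 4 of the 38 target promoters found (10.5%), beside 3.78% of all 33469 promoters. These 4 were those of Bcl2l11, Hbp1, Pik3ca and Trim63, and the difference in share was not tested.

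Covariation of the members was examined within groups, which leaves out the group differences that led to their choice. Each gene was read by its brightest probe. Of the 28 pairs of measured genes, 5 passed a two-sided permutation test of Pearson's r over the 31 arrays with group means removed, after Benjamini-Hochberg adjustment over the 28, and 4 of these also passed for Spearman's rho. Arrays were shuffled within groups, and each slide held at most 4 arrays, too few for a value per slide. Both values of a pair come from the same RNA and array. The parts of array-wide technical variation and of blood cell makeup in these relations were not tested.

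Irs2 and Foxo1 varied together (r = 0.53, permutation p = 0.00207, adjusted 0.0239; rho = 0.57, permutation p = 0.00134, adjusted 0.0283). Without the 2 arrays farthest from the median of Irs2, r was 0.57, and with slide means also removed it was 0.65. Of the 3 CR arrays with the lowest Irs2, replicates 6 (-0.50) and 8 (-0.38) had the lowest Foxo1 of the group, at -0.38 and -0.37, while replicate 3 (-0.49) was at -0.17. Within groups r was 0.44 in WT, 0.77 in CR and 0.34 in CR-L.

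Pdpk1 ran against Foxo1 (r = -0.51, permutation p = 0.00256, adjusted 0.0239; rho = -0.53, permutation p = 0.00303, adjusted 0.0283), with r of -0.46 in WT, -0.59 in CR and -0.56 in CR-L. Without the 2 farthest arrays r was -0.50.

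Pik3r1 and Pdpk1 gave the highest coefficient (r = 0.68, permutation p = 0.00014, adjusted 0.00392; rho = 0.58, permutation p = 0.00288, adjusted 0.0283). The Pik3r1 probe here is that at base 4273, not the farthest one at base 7726. With group means removed, these 2 Pik3r1 probes correlated at 0.24. Within groups, r of Pik3r1 with Pdpk1 was 0.88 in CR-L, 0.52 in WT and 0.0054 in CR. Over all arrays it was 0.53 without CR-L replicates 13 and 7. With the mean of the platelet markers, r was -0.57 for Pik3r1 and -0.45 for Pdpk1, neither past the threshold after adjustment. Within CR-L these were -0.70 and -0.73, within WT -0.12 and -0.25, and within CR 0.015 and 0.63. The part of platelet content in this pair was not tested.

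Irs2 with Pik3r1 (r = 0.45, permutation p = 0.00655, adjusted 0.0367; rho = 0.47, permutation p = 0.00624, adjusted 0.0437) fell to 0.31 without the 2 farthest arrays. Akt1 with Foxo1 (r = 0.48, permutation p = 0.00361, adjusted 0.0253; rho = 0.46, permutation p = 0.0123, adjusted 0.069) fell to 0.34 without them and to 0.25 with slide means removed.

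**Figure D4:**
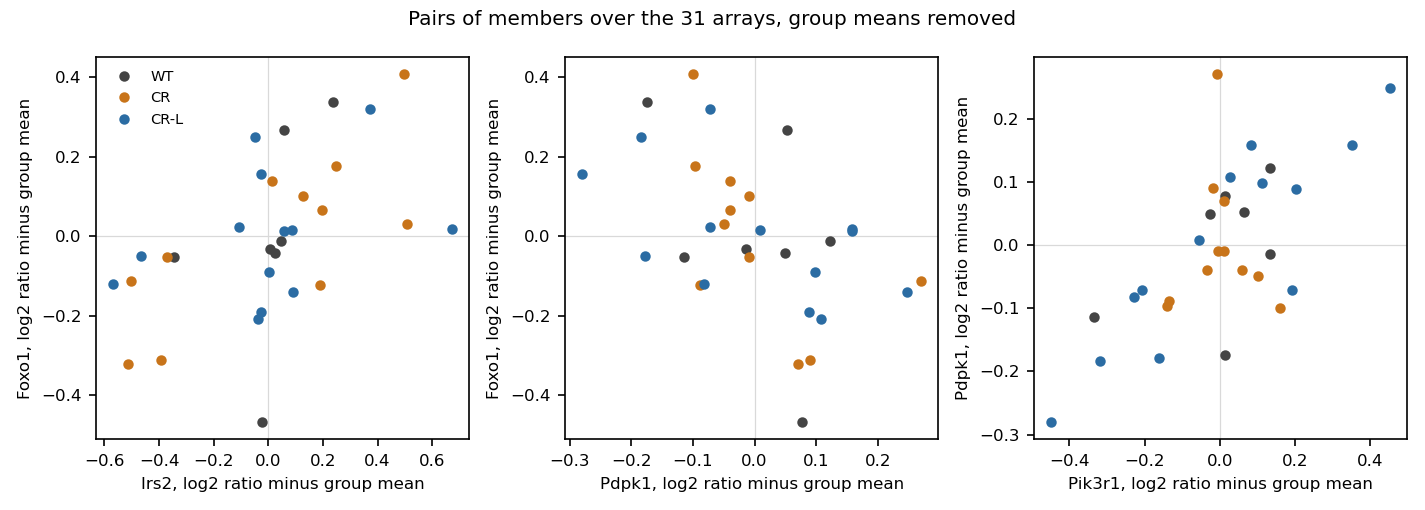
Each point is 1 of the 31 arrays, coloured by group, with its group mean removed from both genes (log2 ratio). Each gene is read by its brightest probe. Irs2 and Foxo1 rise together (r = 0.53), Foxo1 falls as Pdpk1 rises (r = -0.51), and Pik3r1 and Pdpk1 rise together (r = 0.68), with 2 CR-L arrays at the ends of the last.

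Blood cell makeup was looked at beside the members. The mean of the B cell list ranged from -0.52 to 0.28 in WT, from -0.92 to 0.39 in CR and from -0.81 to 0.33 in CR-L. Of its 14 genes, 12 were below 0 in CR minus WT and 14 in CR-L minus WT, none of them past the threshold. Over all features, 44.5% and 44.9% were below 0 in these comparisons. The genes of a list are not independent of each other, and no list was tested as a set. The mean of the cytotoxic list ranged from -0.30 to 0.22, from -0.36 to 0.43 and from -0.68 to 0.43. Of its 11 genes, 10 were above 0 in each comparison and none passed. No measured marker of either list was short of background on any array. Of the 11 platelet genes, 11 were above 0 in CR minus WT (median 0.45) and 5 in CR-L minus WT (median -0.041). Of the 17 erythroid genes, 4 were above 0 in CR (median -0.21) and 16 in CR-L (median 0.23). Of the 12 granulocyte genes, 10 were below 0 in CR and 9 in CR-L, with a median of -0.26 in each. T cell genes were above 0 for 16 of 18 in CR and 15 of 18 in CR-L, and monocyte genes below 0 for 10 of 13 and 8 of 13. Over these 5 lists only Gypc, a glycophorin of red cells, passed, at 0.24 ± 0.070 in CR-L minus WT (limma adjusted p = 0.0486), and it is named after its values were seen. With the T cell, B cell, monocyte and erythroid lists as covariates, Foxo1 was at -0.45 in CR and -0.47 in CR-L, and Irs2 at -0.37 and -0.54. Pdpk1 was at 0.19 in CR and 0.21 in CR-L in that fit, where the CR-L difference missed the threshold (limma adjusted p = 0.107). The platelet, granulocyte and cytotoxic lists were not covariates, and their part in the differences was not tested.

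Of 56 pairs of a member with a cell type list, 0 passed the permutation test of Pearson's r after adjustment over the 56 pairs. The smallest p-values were those of Foxo3 with the platelet list (r = 0.63, permutation p = 0.00131, adjusted 0.0734; rho = 0.50, permutation p = 0.00964, adjusted 0.135) and Foxo1 with the cytotoxic list (r = -0.47, permutation p = 0.00509, adjusted 0.0968; rho = -0.54, permutation p = 0.0026, adjusted 0.0798). Without the 2 farthest arrays they were 0.61 and -0.64. Next came Insr with the erythroid list (r = -0.42, permutation p = 0.00792) and Pik3r1 with the platelet list (r = -0.57, permutation p = 0.00829). Foxo3 with the erythroid list followed (r = 0.50, permutation p = 0.00864), each of these adjusted to 0.0968. For Irs2 and the B cell list r was 0.46 (permutation p = 0.0157, adjusted 0.124; rho = 0.37, permutation p = 0.058, adjusted 0.238). With the erythroid list Irs2 was alike (r = 0.47, permutation p = 0.0177, adjusted 0.124). Within groups, r of Foxo1 with the cytotoxic list was 0.01 in WT, -0.39 in CR and -0.85 in CR-L. With slide means also removed it was -0.74 over all arrays. For Foxo3 with the platelet list, r was -0.19 in WT, 0.64 in CR and 0.73 in CR-L.

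As a description, the genes whose ratios ran most like each member over the 31 arrays, with group means removed, were taken from 11572 features with an established symbol. For Foxo1 they were Il4r, a chain of the interleukin 4 receptor (r = 0.80), Lrrc8b (0.75) and Gdpd3 (0.75). For Irs2 they were Rnf19a (0.90), the chemokine receptor gene Cxcr4 (0.86) and the activation marker Cd83 (0.85). The others were Kpnb1 for Insr (0.76), Idi1 for Pik3r1 (0.78), Chmp7 for Pdpk1 (0.80), Ehbp1l1 for Akt1 (0.91), Mpst for Akt2 (0.72) and Kcns3 for Foxo3 (0.83). All share the RNA and the array of the member, and each is the extreme of many coefficients.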

How the data were processed

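PBMC RNA of 31 rat samples was hybridised with a common reference pool (5 random samples per group) on Agilent 2-colour arrays, with the sample in Cy5 throughout and no dye swap. Spot and background intensity values were deposited by the authors as Feature Extraction 10.7.3.1 output, per the file headers. The log10 ratio in the same deposited files, converted to log2, served as an alternative. The authors' deposited series table holds log2 values that track the sample channel and have 1 common median; how it was made is not given in the sources used here.

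Intensities were corrected with normexp (offset 50) and loess-normalized within arrays in limma 3.58.1 (R 4.3.3), control spots at weight 0. Outlier spots (0.408%) were left out, and spots of a probe averaged. Probes well above background on at least 7 arrays were kept, and the brightest probe stood for a gene symbol. One model over 31 arrays was fitted with lmFit and eBayes, with Benjamini-Hochberg adjustment over all features and a threshold of 0.05. Correlations used 100000 permutations (numpy). Models were tested on simulated data. Errors after ± are SE for differences and SD for group means. Probe coordinates are those of the files (rn4); exon and UTR annotation was not used here.

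The members and gene lists were chosen with earlier results of these data known. Named are all members with every probe, of each pathway list every gene called plus the smallest p-values to at least 2 and at most 6 per comparison, and the genes most like a member (3 for Foxo1 and Irs2, 1 for others). Fits of secondary probes and the alternatives for the farthest Pik3r1 probe were added after their values were seen.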

Additional observations from a re-analysis of the deposited data

Results flagged for a closer look

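Of 24 sets of 7 WT values (17 member probes and 7 cell type lists), 4 held an array far from the other 6 by Dixon's criterion, which chance gives in about 1 set in 20. For Insr (base 8636), WT replicate 6 was at -0.51 and the others between 0.0088 and 0.21, and this is the array with the high sample signal. For the brightest Pik3r1 probe, WT replicate 3 was at -0.15 against 0.16 to 0.32. For the farthest Pik3r1 probe, WT replicate 7 was at -0.88 against -0.39 to -0.051. The B cell list of WT replicate 1 was at -0.52 against 0.034 to 0.28. The groups of 11 and 13 arrays were too large for the criterion.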

How the results depend on the processing

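The alternatives changed the background, the filter, the channel, blocks, covariates, weights or the samples. The count of all features called for CR minus WT, 102, became 65 with the Agilent log ratio, 34 with the sample channel alone, 0 in the authors' series table (limma, with 2135 of 20650 at an unadjusted p under 0.05), 169 with probes well above background on all 31 arrays, 229 with the replicate block, 67 with cell type covariates, 393 with array weights and 193 with only the groups compared. For CR-L minus WT, 787 became 500 in the series table and 468 with cell type covariates. Members called for CR minus WT became 0 in the series table and 2 with the replicate block, where Irs2 was at -0.55. Leaving out 1 array gave 17 to 207 features and 0 to 1 members for CR minus WT, and 423 to 1099 and 1 to 3 for CR-L minus WT. The lowest counts of features were without WT replicate 4. No member was called for CR minus WT without WT replicate 2, 4 or 6 or CR replicate 8, and 1 for CR-L minus WT without WT replicate 4. No setting called a feature in CR-L minus CR.

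The signs of Foxo1 and Irs2 against WT held in all settings run. Foxo3 in CR-L passed in the sample channel alone (0.17, limma adjusted p = 0.0479). Pdpk1 in CR-L missed the threshold in 8 settings other than leaving out an array or changing the probe. Values near 0 turned sign. For CR minus WT, Insr was -0.036 with the Agilent log ratio, -0.060 in the series table and -0.00089 with array weights, Pik3r1 was 0.0020 at base 1365 and 0.49 at base 7726, and Foxo3 was -0.12 at its second probe. For CR-L minus WT, Insr was 0.0062 in the sample channel, 0.00063 with slide and 0.031 with the replicate block, and 0.020 with cell type covariates. Akt2 was 0.022 in the sample channel, Akt1 -0.011 with slide, Pik3r1 0.010 and 0.51 at its other probes, and Foxo3 -0.10. For CR-L minus CR, Foxo3 was 0.013 in the sample channel and 0.024 at its second probe, Pik3r1 0.00085 with the replicate block and 0.0080 and 0.025 at its other probes, Insr 0.0042 and Akt1 0.0025 with cell type covariates, Akt1 0.033 with array weights, Irs2 0.037 and 0.014 at bases 1881 and 2708, and the farthest Pik3r1 probe -0.010 with slide as a block. Without single arrays the differences that turned sign ran, for CR minus WT, from -0.063 to 0.057 (Insr) and -0.014 to 0.066 (Akt1). For CR-L minus WT they ran from -0.11 to 0.0098 (Insr), -0.016 to 0.085 (Akt1) and -0.039 to 0.017 (Akt2). For CR-L minus CR they ran from -0.070 to 0.0047 (Pik3r1), -0.0070 to 0.041 (Pdpk1), -0.024 to 0.050 (Akt1), -0.055 to 0.018 (Foxo1), -0.039 to 0.00092 (Foxo3) and -0.0036 to 0.059 (farthest Pik3r1 probe). The cause of these changes was not tested.

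Limits: 7 WT arrays set the precision, and sex and litter per sample are not known. Irs1, 4 of the 5 Irs2 probes and the second probes of Insr and Foxo3 were close to background. No pairing of samples by replicate number was seen. Same-numbered arrays correlated between -0.42 and 0.45 and matched best with their own number in at most 2 cases per comparison. Whether equal numbers mark a shared litter could not be checked, since litter is not given.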
